A study of Rattus norvegicus with 10 samples.

Results

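The genes examined are 10 receptors and bridging proteins through which macrophages take up dying cells, membrane fragments and modified lipoproteins: Mertk, Axl, Gas6, Mfge8, Stab1, Marco, Msr1, Timd4, Vsig4 and Havcr2. They were chosen by name, as a fixed list, and every listed gene in the expression table was used. Of the 10, 5 were among the 9003 genes of the table (Axl, Gas6, Mfge8, Msr1 and Havcr2). The other 5 (Mertk, Stab1, Marco, Timd4 and Vsig4) were not analysed here. The table holds only genes that reached 1 CPM (read counts scaled to library size) in at least 1 library. Whether this filter or another step left out the other 5 is not known, so nothing follows about their levels.

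RNA had been sequenced from splenic cells sorted as M2 macrophages from rats of the strain WKY/NCrj, in 10 libraries. The control group (n = 2) came from rats in the physiological state, and the GN group (n = 2) from rats with glomerulonephritis that received no cells. Nephritis had been induced with TF78, a mouse monoclonal antibody against the glomerular basement membrane. The EVposi (n = 3) and EVnega (n = 3) groups came from nephritic rats given human adipose-derived mesenchymal stem cells (ASCs) whose membranes had been stained with the dye DiD. EVposi macrophages carried the dye, taken as transfer of ASC-derived extracellular vesicles (EVs), and EVnega macrophages did not. The rats of the nephritis model were young adult females, per the methods, and the labels give no age for single libraries. The methods call the replicates biological but do not say whether EVposi and EVnega libraries of the same number came from 1 rat. Whether the dye marked EVs or engulfed ASCs had been examined in the study by microscopy, which is not analysed here, and no library of rats given unlabelled cells was used here.

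Efferocytosis, the uptake of dying cells, starts with the recognition of phosphatidylserine, a lipid that healthy cells keep on the inner face of their membrane and that apoptotic cells and many EVs display outside. Gas6 and Mfge8 are secreted bridging proteins. Gas6 links phosphatidylserine to the receptor tyrosine kinases Tyro3, Axl and Mertk (TAM receptors), and Mfge8 links it to αv integrins. Timd4, Stab1 and Havcr2 (TIM-3) bind the lipid directly, Msr1 and Marco are class A scavenger receptors for modified lipoproteins and polyanions, and Vsig4 is a complement receptor. In the spleen these receptors are known mainly from resident macrophages of the red pulp and the marginal zone.

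The 9003 genes held between 19270515 and 26617093 reads per library, so that 3 reads corresponded to 0.113 to 0.153 CPM. Among macrophage markers, Csf1r, the receptor for the macrophage growth factor M-CSF, lay between 5800 and 8155 CPM. Cd68, a lysosomal scavenger receptor of macrophages, lay between 1163 and 1466 CPM. Whether the cells were macrophages or other myeloid cells was not tested. Cd163 and Mrc1, receptors widely used as M2 markers, were near 0. Cd163 lay between 0 and 1.81 CPM with no read in 3 libraries, and Mrc1 lay between 0 and 1.81 CPM with no read in 2 libraries. Markers of resident splenic macrophages differed in level. Spic, the lineage factor of red pulp macrophages, was at 2.61 to 6.82 CPM and Siglec1, a receptor of marginal zone macrophages, at 0.459 to 7.50 CPM, whereas Hmox1 of the red pulp list was at 140 to 265 CPM and Nr1h3 of the marginal zone list at 47.8 to 81.8 CPM. The EVnega libraries carried more RNA of a list of NK and T cell genes (12 of 14 genes measured) than the others. The summed level of this list was 710, 106 and 58.2 CPM in EVnega replicates 1, 2 and 3, and between 26.2 and 46.0 CPM in the other 7 libraries.

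**Figure D1:**
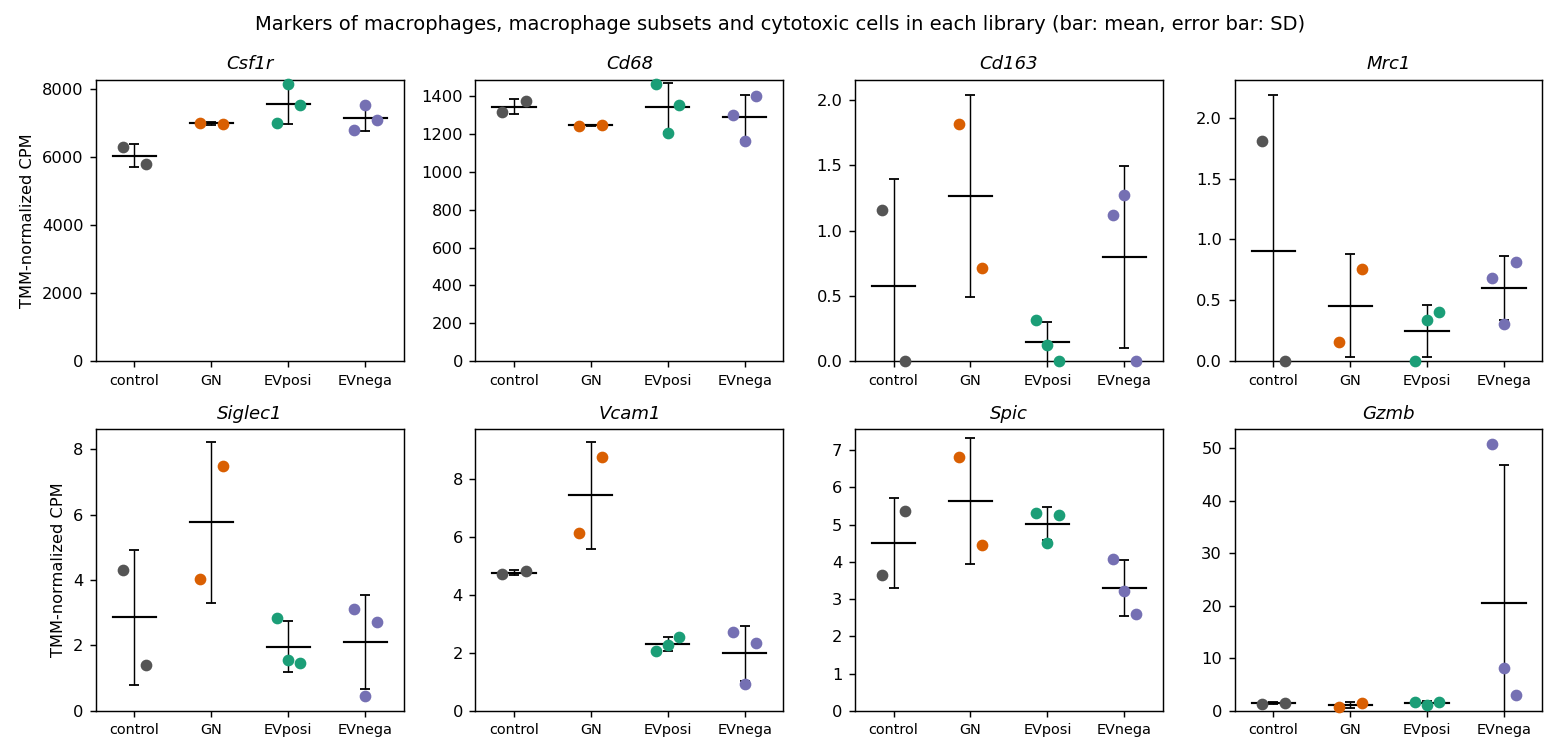
TMM-normalized CPM (linear y axis from 0) of 8 marker genes in each library, grouped on the x axis as control (n = 2), GN (n = 2), EVposi (n = 3) and EVnega (n = 3); points are libraries, horizontal bars means and error bars SD. Csf1r and Cd68 were high in every library, whereas Cd163 and Mrc1 stayed at or under 1.81 CPM; Gzmb, a protease of NK and cytotoxic T cells, was highest in EVnega replicate 1, at 50.7 CPM.

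All 5 measured uptake genes were at low levels. Their values ran from 0 to 6.37 CPM, and their reads from 0 to 169 per library. No gene had entered the table through 1 group alone: Gas6 reached 1 CPM in 1 library each of the control, GN and EVnega groups, and the other 4 genes reached it in all 4 groups. Between replicates, the reads varied 4.44 to 16.7 times as much as counting error would give (chi-square per degree of freedom), against a median of 5.19 over the 1254 genes of the same range of mean CPM. Because RNA was pooled over cells, fewer cells expressing a gene and less RNA per cell cannot be told apart. Levels of different genes are not ranked, since the CPM were not divided by transcript length.

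**Figure D2:**
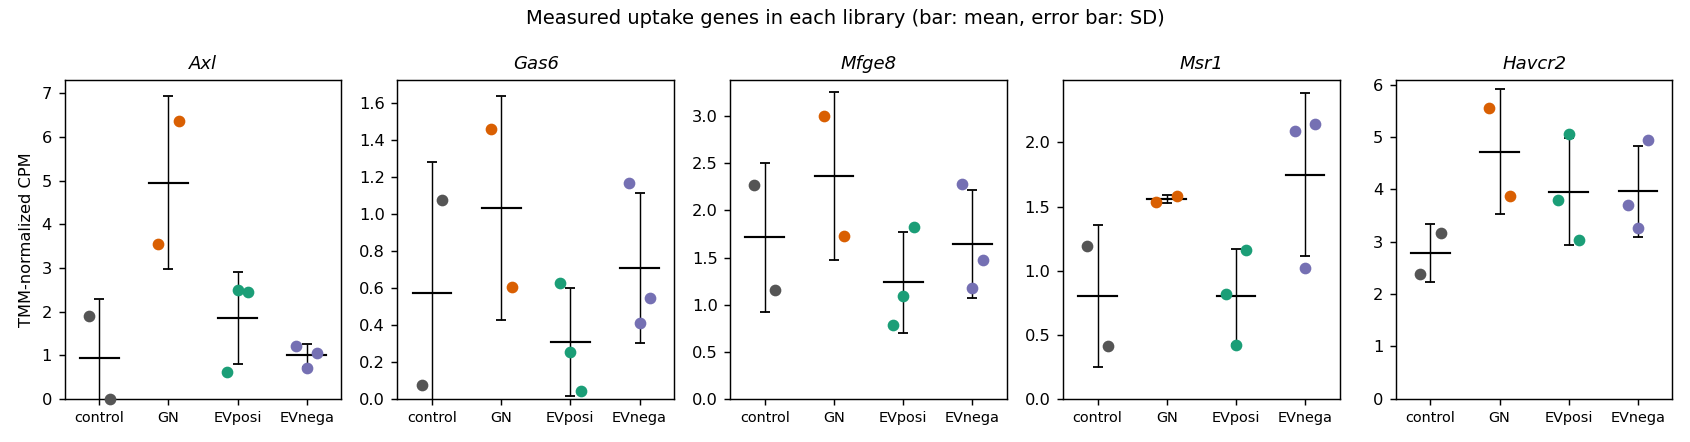
TMM-normalized CPM (linear y axis from 0, scaled for each gene) of the 5 measured uptake genes in each library, grouped on the x axis by control (n = 2), GN (n = 2), EVposi (n = 3) and EVnega (n = 3); points are libraries, horizontal bars means and error bars SD. The group mean was highest in GN for Axl, Gas6, Mfge8 and Havcr2 (24.7% of all genes) and in EVnega for Msr1 (23.2%), and the spread between replicates was wide.

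Axl, the TAM receptor that is usually induced in inflammation and by interferon, varied most. Its level was 1.89 and 0 CPM in the control libraries (49 reads and no read), 3.55 and 6.37 CPM in the GN libraries (90 and 169 reads), 0.625, 2.48 and 2.45 CPM in the EVposi libraries, and 1.21, 0.714 and 1.05 CPM in the EVnega libraries. Both GN libraries lay above all 8 others. The EVposi, EVnega and control values overlapped. The absence of reads in control replicate 2 allows a level of up to 0.124 CPM, counting error only. The means were 0.944 ± 1.33 CPM in control (SD, n = 2), 4.96 ± 1.99 in GN (n = 2), 1.85 ± 1.06 in EVposi (n = 3) and 0.993 ± 0.256 in EVnega (n = 3).

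On the log2(CPM + 1) scale, Axl was 1.77 ± 0.474 (SE) higher in GN than in control (95% confidence interval 0.75 to 2.79), and the adjusted p in limma was 0.116, above the threshold FDR of 0.1. The difference was -1.10 ± 0.433 for EVposi against GN (adjusted p = 0.656) and -1.55 ± 0.433 for EVnega against GN (adjusted p = 0.303). Both of these differences are measured against the same GN libraries as the first. The EVposi minus EVnega difference was 0.44 ± 0.387 (interval -0.39 to 1.27), which spans 0. The call in GN against control changed with single libraries. Without control replicate 1 the difference was 2.53 with an adjusted p of 0.0381 in limma, but the control group is then the 1 library with no Axl read, whose spread is assumed to be that of the other groups. Without control replicate 2 the difference was 1.003 with an adjusted p of 0.578. The adjusted p was also under 0.1 without EVposi replicate 1 (0.0705), and among the 4 groups without control replicate 1 (0.0753, against 0.204 with all libraries). With a pseudocount of 0.1 in place of 1 the difference was 3.45 (adjusted p = 0.176). Over all alternatives, the adjusted p of Axl in GN against control ran from 0.0381 to 0.642.

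Vcam1, an adhesion molecule of red pulp macrophages, was also highest in the 2 GN libraries (GN above both control libraries: 21.9% of all genes). It was at 4.70 and 4.83 CPM in control, 6.11 and 8.74 in GN, 2.07, 2.27 and 2.54 in EVposi, and 2.72, 0.917 and 2.33 in EVnega. It fell in EVnega against GN (log2 difference -1.53 ± 0.278, adjusted p = 0.0406), and this call held without EVnega replicate 1 (adjusted p = 0.0236). Siglec1 was at 4.02 and 7.50 CPM in GN and at 4.31 and 1.40 CPM in control, with a log2 difference of 0.87 ± 0.486 from control (adjusted p = 0.591). The red pulp list had 5 of 8 genes measured, with summed levels of 222 to 276 CPM in control, 213 to 220 in GN, 153 to 195 in EVposi and 147 to 227 in EVnega. Most of this sum was Hmox1, which degrades heme, whereas Cd163 was near 0. The part of resident macrophages in the Axl values was not tested.

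The 3 genes of the whole table whose log2 values followed Axl most closely over the 10 libraries were Rabgap1l (Pearson r = 0.905), Zbtb46 (r = 0.887) and Bloc1s6 (r = 0.876), out of 7193 genes with a mean of at least 5 CPM. Zbtb46 is a transcription factor of the dendritic cell lineage, and its means were 24.9 CPM in control, 31.3 in GN, 29.3 in EVposi and 27.1 in EVnega. These correlations describe libraries that share their groups and carry no p.

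Gas6, the ligand of Axl, was at the floor of the table. It had 0.077 and 1.07 CPM in the control libraries, 1.46 and 0.603 in the GN libraries, 0.625, 0.253 and 0.0446 in the EVposi libraries, and 1.17, 0.408 and 0.545 in the EVnega libraries. Control replicate 1 and EVposi replicate 3 held 2 reads and 1 read, under the floor of 3 reads. The 4 groups overlapped. The log2 difference was 0.41 ± 0.394 for GN against control (adjusted p = 0.795), -0.63 ± 0.359 for EVposi against GN (adjusted p = 0.814) and -0.38 ± 0.321 for EVposi against EVnega (adjusted p = 0.9997).

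Mfge8, the bridge to αv integrins, was measured at 2.27 and 1.15 CPM in the control libraries, 2.998 and 1.73 in the GN libraries, 0.781, 1.09 and 1.83 in the EVposi libraries, and 2.28, 1.17 and 1.48 in the EVnega libraries. The ranges of the 4 groups overlapped. The log2 difference was 0.32 ± 0.338 for GN against control (adjusted p = 0.820), -0.59 ± 0.308 for EVposi against GN (adjusted p = 0.767) and -0.25 ± 0.276 for EVposi against EVnega (interval -0.84 to 0.34).

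The DNA before the start sites of these secreted ligands is shown because transcription factors that bind the marked letters are among the pathway genes described further on. The windows hold the 250 bases upstream of the start in the RefSeq table (build GRCr8; the expression table used rn6), read on the gene's strand. Capitals mark AGGTCA, the half-site of nuclear receptors such as PPARγ and LXRα, and CCACCC, the box bound by Krüppel-like factors such as Klf2. The Gas6 window lies at chr16:82747426-82747675 on the plus strand, and the Mfge8 window at chr1:142489432-142489681 on the minus strand.
Gas6: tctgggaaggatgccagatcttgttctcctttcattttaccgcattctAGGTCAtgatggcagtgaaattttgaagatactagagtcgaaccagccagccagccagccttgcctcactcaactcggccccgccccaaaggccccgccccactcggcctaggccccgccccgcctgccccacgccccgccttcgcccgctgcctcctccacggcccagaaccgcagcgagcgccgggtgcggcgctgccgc
Mfge8: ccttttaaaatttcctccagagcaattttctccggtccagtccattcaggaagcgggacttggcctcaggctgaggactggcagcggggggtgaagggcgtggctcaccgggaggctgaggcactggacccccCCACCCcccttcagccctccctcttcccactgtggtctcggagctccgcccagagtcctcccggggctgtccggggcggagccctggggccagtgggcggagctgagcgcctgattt

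Of the 33469 promoter windows of RefSeq, each 300 bases long from 250 before to 50 after the start, 16.2% held AGGTCA and 29.4% held CCACCC on either strand. Among the 4 uptake genes found in that table (Axl, Gas6, Mfge8 and Havcr2; Msr1 was not matched), Gas6 and Havcr2 held AGGTCA and Mfge8 held CCACCC. In Gas6 the half-site began 202 bases before the start, with a match on the other strand at 11 bases after it, and in Havcr2 it began 203 bases before. The AP-1 site TGANTCA (7.33% of windows) was in none of the 4 windows. A match of letters in such a window is not evidence of binding.

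Msr1, a scavenger receptor for modified lipoproteins, was the gene with the highest mean in EVnega. Its level was 1.19 and 0.412 CPM in the control libraries, 1.54 and 1.58 in the GN libraries, 0.820, 0.421 and 1.16 in the EVposi libraries, and 2.09, 1.02 and 2.14 in the EVnega libraries. The GN libraries lay above both the control and the EVposi libraries, whereas the lowest EVnega library lay under the highest EVposi library. The mean was 0.800 ± 0.370 CPM in EVposi (SD, n = 3) and 1.75 ± 0.633 in EVnega (n = 3).

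The EVposi minus EVnega difference of Msr1 was -0.60 ± 0.275 on the log2 scale (interval -1.19 to -0.01). Its unadjusted p in limma was under 0.05, but the adjusted p was 0.9997, and an exact two-sided permutation test of the 6 libraries, without pairing, gave p = 0.2, where 0.1 is the smallest that 3 against 3 libraries allow. Msr1 was lower in EVposi than in the EVnega library of the same number in 3 of 3 pairs, as was Gas6 (Mfge8 in 2 pairs, Axl and Havcr2 in 1 pair each), and a limma fit blocked on that number gave an adjusted p of 0.937. The NK and T cell list summed to 710 and 58.2 CPM in the 2 high EVnega libraries and to 106 CPM in EVnega replicate 2. All of these sums lay above those of the other groups. The part of NK and T cell RNA in the Msr1 difference therefore cannot be told apart from the group and was not tested. Without EVnega replicate 1 the difference was -0.50. The other differences of Msr1 were 0.54 ± 0.336 for GN against control (adjusted p = 0.643), -0.53 ± 0.307 for EVposi against GN (adjusted p = 0.820) and 0.61 ± 0.307 for EVnega against control (adjusted p = 0.424). Apex2 (r = 0.885), Ech1 (r = 0.871) and Timm17a (r = 0.854) followed Msr1 most closely over the 10 libraries. Apex2 is a DNA repair nuclease, Ech1 an enzyme of fatty acid oxidation and Timm17a a part of the mitochondrial import channel.

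Havcr2, a phosphatidylserine receptor and an inhibitory receptor of T cells and myeloid cells, was above 1 CPM in all 10 libraries. It had 2.39 and 3.18 CPM in control, 5.56 and 3.88 in GN, 3.79, 5.05 and 3.03 in EVposi, and 3.69, 3.26 and 4.94 in EVnega. The control libraries were lower than all GN and EVnega libraries, and EVposi replicate 3 lay between the 2 control libraries. On the log2 scale Havcr2 was 0.59 ± 0.273 higher in GN than in control (interval 0.00 to 1.17, adjusted p = 0.477). EVposi and EVnega differed by -0.01 ± 0.223 (interval -0.49 to 0.47, exact permutation p = 1). The NK and T cell list was highest in EVnega replicate 1, where Havcr2 was at 3.69 CPM. It was lowest in that group in replicate 3, where Havcr2 was at 4.94 CPM. The part of NK and T cell RNA in the Havcr2 values was not tested. Of the ligands of Havcr2 and Vsig4, all 5 listed genes were measured and none passed the test. Galectin-9 (Lgals9) lay between 9.05 and 22.6 CPM, and complement C3 between 436 and 616 CPM.

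Across the 5 genes, limma called none at an FDR of 0.1 among the 4 groups or in any of the 6 pairwise comparisons, and neither did edgeR's quasi-likelihood test, edgeR's likelihood-ratio test or DESeq2, which called 0.0222% to 6.84% of all genes over these comparisons. In EVposi against GN, DESeq2 gave an adjusted p for 7603 genes, and of the 5 genes Havcr2 alone was among them, so the other 4 could not be called there. At an unadjusted p under 0.05, limma gave 1 gene of 5 among the 4 groups (12% of all genes), 2 in GN against control (Axl and Havcr2, 10.4% of all genes) and none in EVposi or EVnega against control (15% and 13.1%). It gave 1 each in EVposi against GN and EVnega against GN (Axl, 7.13% and 7.85% of all genes) and 1 in EVposi against EVnega (Msr1, 4.57%). Of all genes, limma called 2.57% among the 4 groups, 1.75% in GN against control, 3.63% in EVposi against control and 2.84% in EVnega against control. It called 0.122% in EVposi against GN, 0.378% in EVnega against GN and 0.0222% in EVposi against EVnega, the comparison that asks what distinguishes cells with transferred vesicles. The standard errors of the 5 genes ran from 0.223 to 0.474 on the log2 scale, whereas the median over all genes was 0.132 to 0.162, so their intervals were wider than those of most genes.

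**Figure D3:**
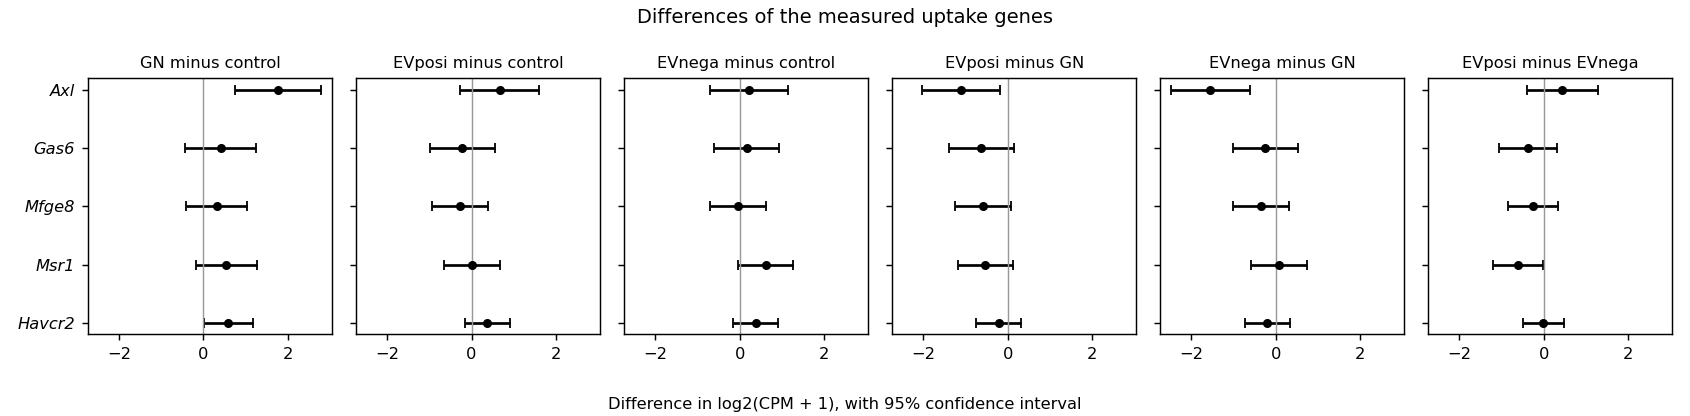
Differences in log2(CPM + 1) between groups (x axis) for the 5 measured uptake genes (y axis), 1 panel for each of the 6 pairwise comparisons; points are limma estimates and bars their 95% confidence intervals, not adjusted for the number of genes. The intervals of Axl in GN minus control (0.75 to 2.79), EVposi minus GN and EVnega minus GN leave out 0, as do those of Havcr2 in GN minus control and Msr1 in EVposi minus EVnega, and none of these passed after adjustment.

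In the comparisons with GN, most of the 5 means were highest in GN, as were 24.7% of all genes among the 4 groups. The mean CPM was higher in GN than in control for 5 of 5 genes, where 49.7% of all genes were higher, and lower in EVposi than in GN for 5 of 5, where 51.9% of all genes were lower. It was lower in EVnega than in GN for 4 of 5 (49% of all genes), the exception being Msr1. Every GN library lay above every control library for 3 of 5 genes (Axl, Msr1 and Havcr2), as it did for 21.9% of all genes. Every EVposi library lay under every GN library for 2 of 5 (Axl and Msr1, 11.8% of all genes), and every EVnega library did so for 1 of 5 (Axl, 12.8%). Every EVnega library lay above every control library for 1 of 5 (Havcr2, 15%). The median log2 difference of the 5 genes was 0.54 in GN against control, -0.59 in EVposi against GN and -0.24 in EVnega against GN, beside medians of 0.00, -0.01 and 0.00 over all genes. The 3 comparisons share the 2 GN libraries, and the agreement of 5 genes was not tested.

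Other genes of uptake were measured in 8 lists, which together held 116 genes, of which 94 were in the table. Among these 94, limma called 7 among the 4 groups (2.57% of all genes). It called 2 higher and 5 lower in GN against control (1.75% of all genes) and 2 higher and 4 lower in EVposi against control (3.63%). In EVnega against control it called 1 higher and 5 lower (2.84%). At such shares, 1 call or none in a single list tells little about that list. A block on the replicate number joins same-numbered libraries of all 4 groups, although neither labels nor methods match control or GN libraries with EV libraries. With that block, limma called 10 rather than 6 in EVposi against control, and 4.21% rather than 3.63% of all genes. Without the block limma called none in EVposi against GN (0.122% of all genes), 1 lower in EVnega against GN (0.378%) and none in EVposi against EVnega (0.0222%). The last comparison had 5 of 9003 genes (0.0555%) called with the replicate number as a block, against 2 without it, and none of the 94 was called in either fit. The median log2 difference in GN against control was 0.09 for phosphatidylserine receptors, -0.11 for scavenger receptors, 0.03 for phagosome genes, -0.07 for shedding and feedback genes and 0.33 for the 5 ligand genes, beside 0.00 over all genes. In EVposi against EVnega the medians of the 8 lists lay between -0.0032 and 0.11, beside -0.01 over all genes.

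Markers of cell types also differed between control and the nephritic groups. The summed level of 11 macrophage genes was 25658 and 26099 CPM in control and 29588 to 31860 CPM in the 8 nephritic libraries. Those of 6 measured dendritic cell genes (229 to 233 CPM in control, 291 to 369 in the nephritic libraries), 5 neutrophil genes (549 to 554 and 609 to 743 CPM) and 2 erythroid genes (1.19 to 1.61 and 3.28 to 7.26 CPM) did not overlap either, whereas those of 4 B cell genes did. Most of the macrophage sum was Lyz2 (15325 to 20176 CPM). The dendritic cell sum was mostly Cd8a (199 to 333 CPM) and the neutrophil sum mostly Csf3r (528 to 723 CPM). Of the 11 macrophage genes, limma called 2 higher and 1 lower in GN against control (1.75% of all genes). Every GN library lay above both control libraries for 21.9% of all genes, every EVposi library for 14.9% and every EVnega library for 15%. Among the markers that limma called in GN against control were Itgam, the integrin CD11b of myeloid cells (log2 difference 0.57, adjusted p = 0.0126), Cd14, the lipopolysaccharide co-receptor of monocytes (0.65, 0.0998), and Cd79b, a part of the B cell receptor (-0.85, 0.0331). Those called in EVposi against control included Itgam (0.57, adjusted p = 0.00323) and Cd14 (0.75, 0.0180). They also included Cd8a, a T cell co-receptor that is in the dendritic cell list (0.57, 0.0164), and Csf3r (0.37, 0.0268). Those called in EVnega against control included Itgam (0.39, adjusted p = 0.0488), Cd8a (0.59, 0.0181) and Csf3r (0.33, 0.0600). Without EVnega replicate 1, the calls of Itgam (adjusted p = 0.146) and Csf3r (0.112) in EVnega and of Cd14 in GN (0.133) were lost. The part of these differences in the pathway genes called against control was not tested.

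Among 15 measured phosphatidylserine receptors and bridging proteins beyond the 5 genes, limma called 1 in GN against control and 1 in EVnega against control. It called 1.75% and 2.84% of all genes there. Cd36, a scavenger receptor that binds phosphatidylserine and oxidized lipoproteins, fell from 205 and 235 CPM in control to 156 and 176 CPM in GN (log2 difference -0.40 ± 0.0970, adjusted p = 0.0743). Itgb5, the β5 chain of the αvβ5 integrin that binds Mfge8, fell from 18.3 and 21.9 CPM in control to 7.63, 9.53 and 11.8 CPM in EVnega (-0.997 ± 0.229, adjusted p = 0.0451). The groups of neither pair overlapped. Every GN library lay under both control libraries for 22% of all genes, and every EVnega library for 14.1%. The Itgb5 call was lost without EVnega replicate 1 (adjusted p = 0.135) or without control replicate 1 (0.143) or 2 (0.345), and in a fit with no intensity trend (0.129). The Cd36 call was lost without control replicate 2 (0.405), GN replicate 1 (0.451) or 2 (0.178), EVposi replicate 3 (0.124) or EVnega replicate 3 (0.102), with no intensity trend (0.242) and in a fit of only the groups compared (0.112).

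Other members of this list were measured at high levels with no call in any comparison. Lrp1, a receptor for calreticulin-tagged cells, lay between 340 and 509 CPM, and Cd300a, an inhibitory receptor for phosphatidylserine, between 300 and 390 CPM. Itgb3, the β3 chain of the integrin αvβ3 that binds Mfge8, lay between 225 and 320 CPM. The complement genes C1qa, C1qb and C1qc, whose product bridges dying cells to phagocytes, lay between 7.53 and 11.2 CPM in the GN libraries and between 1.75 and 7.01 CPM in the other groups. None of these 3 passed the test. Both GN libraries lay above every control library for 21.9% of all genes, above every EVposi library for 11.8% and above every EVnega library for 12.8%.

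Of 9 measured scavenger receptors, limma called 1 in each nephritic group against control, where it called 1.75% to 3.63% of all genes. Clec7a (dectin-1), a receptor for fungal β-glucan, fell from 473 and 520 CPM in control to 381 and 346 in GN, to 413, 360 and 364 in EVposi and to 377, 364 and 357 in EVnega. Every nephritic library lay under both control libraries, as it did for 22% (GN), 15.6% (EVposi) and 14.1% (EVnega) of all genes. The log2 differences from control were -0.45 ± 0.0893 in GN (adjusted p = 0.0264), -0.39 ± 0.0815 in EVposi (0.0217) and -0.44 ± 0.0815 in EVnega (0.0146). All 3 calls were lost without control replicate 2 (adjusted p = 0.206, 0.265 and 0.199) and also with no intensity trend (0.170, 0.128 and 0.119). That in GN was also lost without GN replicate 1 (0.109) or 2 (0.328), and that in EVposi without EVposi replicate 3 (0.105) and in a fit of only the groups compared (0.122). Scarb1, the receptor for high-density lipoprotein, at 156 to 184 CPM, and Olr1 (LOX-1), a receptor for oxidized lipoprotein, at 130 to 196 CPM, did not pass in any comparison.

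**Figure D4:**
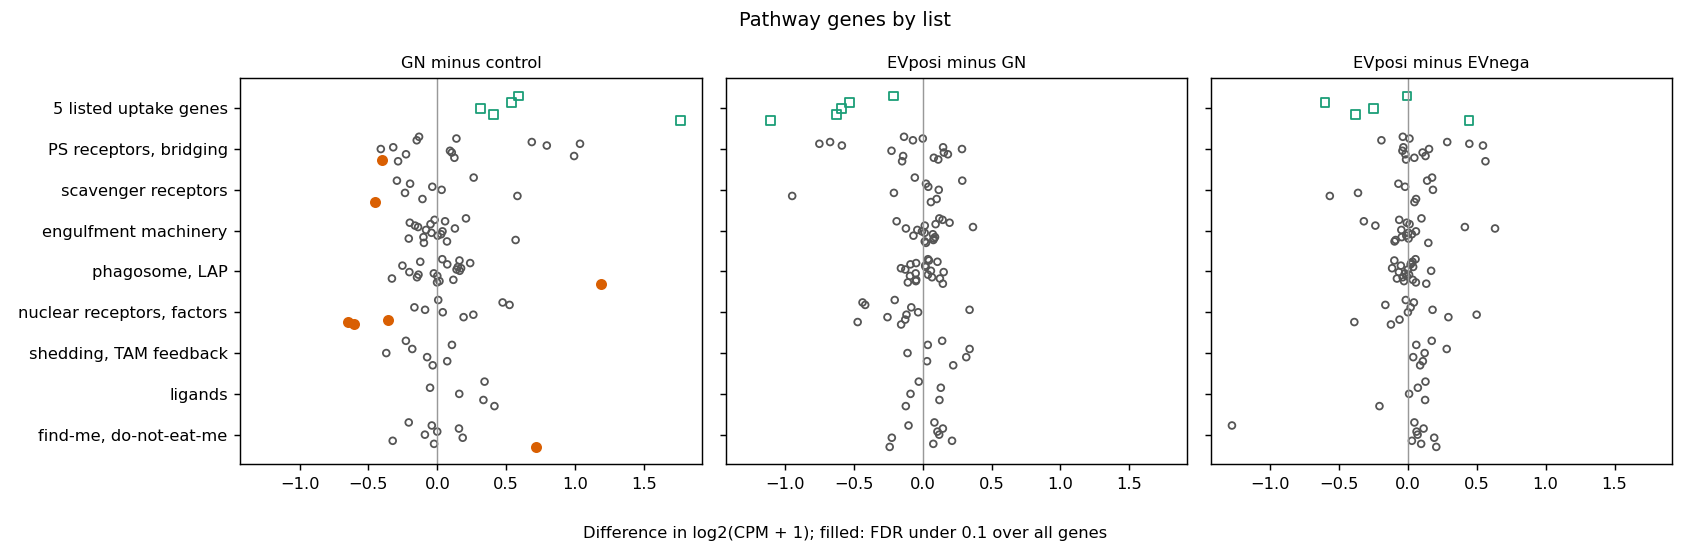
Differences in log2(CPM + 1) (x axis) of the 94 measured pathway genes by list and of the 5 uptake genes (squares, top row), by list on the y axis, for GN minus control, EVposi minus GN and EVposi minus EVnega; each point is 1 gene, filled where limma's FDR over all genes was under 0.1. Filled points appear in GN minus control only, 2 higher and 5 lower (1.75% of all genes were called there), and most genes lie close to 0.

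The lowest p in the lists was that of Ncf1, the p47phox subunit that activates the phagocyte NADPH oxidase, which acts in the oxidative burst and in LC3-associated phagocytosis. Its level was 65.3 and 62.9 CPM in control, 148 and 147 in GN, 174, 157 and 160 in EVposi, and 158, 135 and 155 in EVnega. All 8 nephritic libraries lay far above both control libraries (by any margin, 21.9% of all genes in GN, 14.9% in EVposi, 15% in EVnega). The log2 difference from control was 1.19 ± 0.0968 in GN (adjusted p = 3.59e-05), 1.34 ± 0.0884 in EVposi (1.64e-06) and 1.203 ± 0.0884 in EVnega (6.39e-06), and the call held under every alternative run. Of the 20 measured genes of phagosome maturation and LC3-associated phagocytosis, limma called 1, where it called 1.75% to 3.63% of all genes against control. This was Ncf1. Its oxidase partners Cybb and Cyba were not called, with Cybb between 1503 and 1984 CPM and Cyba between 926 and 1208 CPM. Of the 18 measured genes of the engulfment machinery, limma called none in any comparison, where it called 0.0222% to 3.63% of all genes by pair of groups. This machinery carries the signal from receptors to actin (Elmo1, Crk, Rac1 and others). The list's median log2 difference lay between -0.03 and 0.06 over the 6 comparisons.

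Of the nuclear receptors and macrophage transcription factors (11 of 12 measured), limma called 3 lower in each nephritic group against control. Of all genes it called 0.822% lower in GN, 1.81% in EVposi and 1.56% in EVnega. This list was chosen with earlier results of these data known. Pparg, the lipid-sensing receptor PPARγ that engulfed cells are known to activate, fell from 210 and 220 CPM in control to 145 and 138 in GN, 121, 130 and 130 in EVposi, and 134, 147 and 134 in EVnega. All nephritic libraries lay under both control libraries, as they did for 22% (GN), 15.6% (EVposi) and 14.1% (EVnega) of all genes. The log2 difference was -0.60 ± 0.0876 in GN (adjusted p = 0.00454), -0.76 ± 0.0799 in EVposi (0.000104) and -0.63 ± 0.0799 in EVnega (0.000555). These 3 calls held under every alternative run.

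Klf2, a Krüppel-like factor that restrains inflammatory genes, fell from 220 and 183 CPM in control to 129 and 127 in GN, 106, 74.3 and 98.8 in EVposi, and 135, 105 and 125 in EVnega. The fall was -1.12 ± 0.142 in EVposi against control (adjusted p = 0.000538), a call kept under every alternative run, and -0.73 ± 0.142 in EVnega (0.0181) and -0.65 ± 0.155 in GN (0.0743). The call in EVnega was lost without control replicate 1 (0.200) and with no intensity trend (0.121). The call in GN was lost without either control replicate (0.442 without replicate 1 and 0.116 without replicate 2), either GN replicate (0.305 and 0.416) or EVposi replicate 3 (0.109), and with no intensity trend (0.257). EVposi and EVnega themselves differed by -0.39 ± 0.127 (adjusted p = 0.934).

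Nr1h3, the oxysterol receptor LXRα that engulfed cholesterol is known to activate and that induces Mertk, is also in the marginal zone macrophage list. It was at 68.8 and 70.4 CPM in control, 77.3 and 81.8 in GN, 67.0, 70.5 and 62.2 in EVposi, and 55.2, 59.8 and 47.8 in EVnega. It fell in EVnega against GN (-0.55 ± 0.106, adjusted p = 0.0609). This call was lost without EVnega replicate 1 (0.109) or 3 (0.142) and without GN replicate 1 (0.380) or 2 (0.476), with no intensity trend (0.197) and in a fit of only the groups compared (0.132). EVposi and EVnega differed by 0.29 ± 0.0950 (adjusted p = 0.934).

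Of 9 measured genes for find-me and do-not-eat-me signals, limma called 1, where it called 1.75% of all genes in GN and 3.63% in EVposi against control. This was P2ry2, the receptor through which phagocytes sense nucleotides released by dying cells. It was at 49.8 and 44.5 CPM in control, 89.5 and 67.8 in GN, 63.4, 64.8 and 69.5 in EVposi, and 63.0, 54.1 and 54.2 in EVnega. It rose by 0.72 ± 0.135 in GN (adjusted p = 0.0181) and by 0.48 ± 0.123 in EVposi (0.0657), and the difference in EVnega was 0.27 ± 0.123 (0.364). The call in GN was lost without control replicate 2 (0.150) or GN replicate 1 (0.230) and with no intensity trend (0.119). The call in EVposi was lost without control replicate 1 (0.143) or 2 (0.435) or without EVposi replicate 2 (0.101) or 3 (0.202), and with no intensity trend (0.156). Of the 7 measured genes for shedding and feedback of TAM receptors, limma called none, where it called 0.0222% to 3.63% of all genes by pair of groups. They include Adam17, the protease that sheds Mertk and Axl. Adam17 lay between 217 and 311 CPM.

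**Figure D5:**
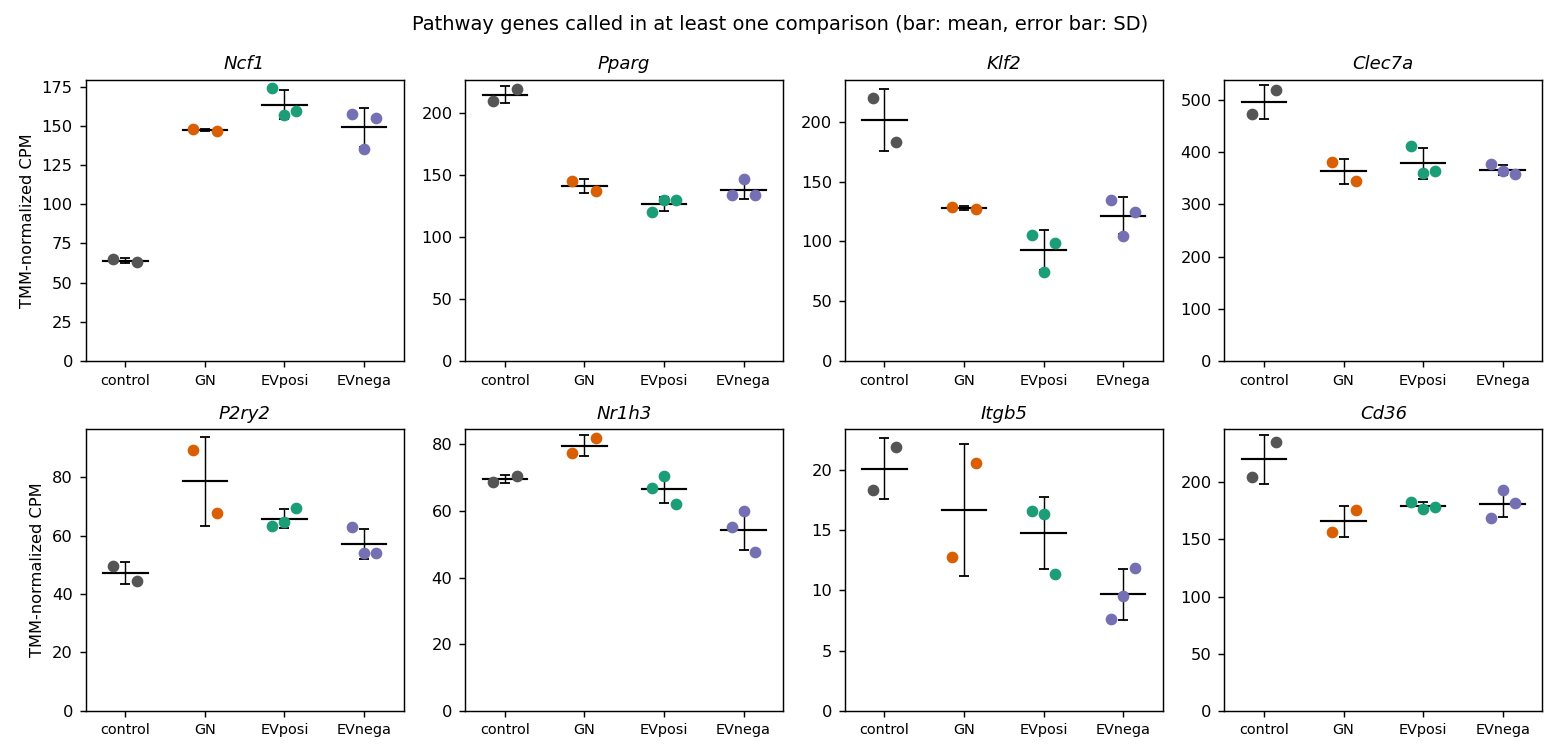
TMM-normalized CPM (linear y axis from 0, scaled for each gene) of 8 pathway genes called in at least 1 comparison, by library, in control (n = 2), GN (n = 2), EVposi (n = 3) and EVnega (n = 3) on the x axis; points are libraries, horizontal bars means and error bars SD. Ncf1 was at 62.9 and 65.3 CPM in control and at least at 135 CPM in the nephritic groups, Pparg, Klf2 and Clec7a were lower in all nephritic libraries than in control, and none of the 8 was called between EVposi and EVnega. Every library of a group lay under both control libraries for 22% (GN), 15.6% (EVposi) and 14.1% (EVnega) of all genes.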

How the data were processed

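The deposited table holds a normalized signal, TMM-scaled CPM, which the authors made with STAR 2.5.3 on rn6, HTSeq 0.6.0 on RefSeq genes and edgeR, removing genes whose maximum CPM was under 1. Within a tolerance of 0.02, 100% of the deposited values were whole reads times the worth of 1 read in their library, so reads were recovered. All columns were used, and 18 symbols had been turned into dates. Replicates differed by 13.4 to 45.4 chi-square per degree of freedom, so none was a copy.

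Groups came from the sample titles. limma (3.58.1, R 4.3.3) was fitted to log2(CPM + 1) over the 9003 genes with 4 groups, 6 residual degrees of freedom and an intensity trend, and Benjamini-Hochberg adjustment at an FDR of 0.1. A fold change on this scale understates that of low genes. The confidence intervals of differences rest on the spread between libraries, and the floor of 3 reads covers counting error only, since reads carried no molecular identifiers. edgeR (4.0.16) and DESeq2 (1.42.0) on the recovered reads were alternatives. The limma procedure was tested on simulated data for GN against control, with changes set only in genes with a mean of at least 1 CPM. That test did not cover Gas6 (mean 0.625 CPM), and smaller changes than those set were not tried.

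The genes and lists were chosen with earlier results of these data known. All listed genes in the table were named, with pathway genes called in at least 1 comparison, the 3 genes most correlated with Axl and with Msr1 (the lowest p among the 4 groups), and leading genes of marker lists. Cd163, Mrc1, Gzmb, Itgam, Cd14, Cd79b, Cd8a, Csf3r and the pathway genes without a call were named after their values were seen. Some genes that the rule names are not reported here, and the counts over lists include them.

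Deviations from the group means correlated between same-numbered EVposi and EVnega libraries at 0.309, 0.423 and 0.236 over genes with a mean of at least 5 CPM. From the data alone, a fit blocked on these numbers was therefore run as an alternative. The main limma fit and the permutation tests did not use this pairing and treated the libraries as independent. For control and GN the correlation was 0.109.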

Additional observations from a re-analysis of the deposited data

How the results depend on the processing

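No alternative tool, pseudocount, filter, scaling, threshold, replicate block or fit of only the groups compared called any of the 5 genes. In EVposi against GN, DESeq2 gave no adjusted p for 4 of them. With a control or GN library left out, the remaining one was assumed to vary like the other groups. Leaving out each library gave 0 to 1 called genes among the 4 groups and in GN against control, and 0 in the other comparisons. The replicate block joined same-numbered libraries of all 4 groups, and neither labels nor methods match those of control or GN with EV libraries. With it, Axl in GN against control had an adjusted p of 0.132 in limma. Over all genes the block moved the calls from 11 to 30 in EVposi against GN, from 34 to 53 in EVnega against GN and from 2 to 5 in EVposi against EVnega. Among pathway genes it moved those in EVposi against control from 6 to 10, and it ended no pairwise call of a named pathway gene. Of the named pathway genes, a fit with no intensity trend ended every pairwise call except those of Ncf1 and Pparg and that of Klf2 in EVposi against control. Over all alternatives, which for pathway genes were chosen after seeing the data, their called number ran from 3 to 14 among the 4 groups (7 as reported), 2 to 11 in GN against control (7), 3 to 11 in EVposi against control (6), 2 to 9 in EVnega against control (6) and 0 to 3 in EVnega against GN (1), and was 0 throughout in EVposi against GN and EVposi against EVnega. In the last, edgeR's likelihood-ratio test called 57 of all genes and DESeq2 called 34. With 2 or 3 libraries a group and 0 to 169 reads a gene, each library weighs heavily.

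The direction of some uncalled log2 differences turned. Msr1 in EVposi against control (0.011) was -0.012 by edgeR's quasi-likelihood test, -0.013 by its likelihood-ratio test, -0.015 by DESeq2 and -0.11 with the block. Msr1 in EVnega against GN (0.075) was -0.051 with the block. With a library left out, GN minus control ran from -0.062 to 0.88 for Gas6. EVposi minus control ran from -0.10 to 1.43 for Axl, -0.69 to 0.26 for Gas6, -0.58 to 0.026 for Mfge8 and -0.31 to 0.33 for Msr1. EVnega minus control ran from -0.54 to 0.99 for Axl, -0.31 to 0.64 for Gas6 and -0.33 to 0.27 for Mfge8. EVposi minus GN ran from -0.42 to 0.0031 for Havcr2. EVnega minus GN ran from -0.55 to 0.065 for Gas6, -0.035 to 0.28 for Msr1 and -0.42 to 0.011 for Havcr2, and EVposi minus EVnega from -0.16 to 0.13 for Havcr2.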
